A study of Mus musculus with 3 samples.

Results

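Lipid-associated macrophage genes are a set of 10 transcripts that mark macrophages loaded with lipid: Spp1, Trem2, Gpnmb, Apoe, Lpl, Fabp5, Cd36, Plin2, Cd9 and Lgals3. They were chosen by symbol, and each matched 1 of the 32285 genes of the count matrices. They were followed in CD45+ (blood-lineage) cells of B16F10 tumours, a mouse melanoma line grown in C57BL/6 mice. Pmel-1 cytotoxic T lymphocytes, whose receptor recognises a melanocyte protein, were given on day 9 of tumour growth, and tumours were taken on day 3, 7 or 14 after this transfer. Cells of 3 mice were pooled into 1 droplet library (10x Genomics 3′ chemistry) per day, so a difference between days has no replicate check. All 3 groups had the same tumour and the same transfer. Untransferred mice were not analysed here, and day, tumour age and library cannot be told apart.

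Macrophages that clear dying cells and lipoprotein take up more lipid than they can use at once, and the 10 products cover the successive steps of that work. Receptors bind lipid and lipoprotein at the cell surface, a secreted lipase and apolipoprotein move fat in and out, carriers and droplet coats hold it inside the cell, and secreted or membrane glycoproteins shape the contact with neighbouring cells. In mouse and human adipose tissue, atherosclerotic plaque and tumours, macrophages carrying these transcripts are known as lipid-associated, foam-like or Spp1+ macrophages, and Trem2 is the receptor most often used to name them.

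Barcodes with at least 1500 unique molecular identifiers (UMIs, each standing for 1 captured RNA molecule) were kept, which left 2775, 2600 and 2902 barcodes at days 3, 7 and 14 of 3656, 3038 and 3549. Monocytes/macrophages were barcodes with a UMI of Csf1r or Adgre1 and none of Cd3e, 1395, 1001 and 1352 cells with 16447248, 11464047 and 18176790 UMIs. They were divided in a fixed order. Arg1-high cells (at least 5 UMIs of Arg1, the arginase of alternatively activated macrophages) numbered 165, 158 and 401. Pf4/C1qa-high cells (at least 5 UMIs of Pf4 and 10 of C1qa, genes of mature tissue macrophages) numbered 20, 12 and 44. Ly6c2/Chil3 cells (at least 3 UMIs of each, genes of fresh monocytes) numbered 507, 340 and 278, and the 703, 491 and 629 others are called the rest. Dendritic cells, the comparison group, were 97, 68 and 86 barcodes outside those gates with a UMI of Flt3. Of the kept barcodes, 138, 180 and 87 also occurred in another of the libraries, among them 31, 33 and 13 monocytes/macrophages.

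The gates were set beside marker genes of each cell type. The summed level of 6 macrophage markers was 12375, 12280 and 15816 CPM (UMIs per 1000000 UMIs of the group) in Pf4/C1qa-high cells at days 3, 7 and 14, and 5793, 2980 and 5354 CPM in Arg1-high cells. It was 636, 568 and 818 CPM in Ly6c2/Chil3 cells, 1411, 1135 and 1375 CPM in the rest, and 21.6, 16.7 and 31.5 CPM in dendritic cells. The 3 markers common to dendritic cells summed to 246, 319 and 303 CPM in the dendritic gate, against 17.7, 20.3 and 18.4 CPM in monocytes/macrophages, but both lists hold genes that set a gate. Of the markers that set no gate, C1qb, C1qc and Mrc1 summed to 1147, 843 and 1626 CPM in monocytes/macrophages, against 14.9, 9.53 and 18.4 CPM in dendritic cells. Zbtb46 and Dpp4, dendritic cell genes, summed to 12.3, 12.9 and 13.8 CPM in monocytes/macrophages, against 92.0, 130 and 122 CPM in dendritic cells. The 5 melanoma markers summed to 3.22, 3.31 and 3.58 CPM in monocytes/macrophages and to 6.19, 8.24 and 6.82 CPM in Arg1-high cells. The 4 fibroblast markers had no UMI in Arg1-high, Pf4/C1qa-high or dendritic cells at day 14. In the day 3 library 4105 of the 4107 red cell UMIs of the Arg1-high gate lay in 1 cell. All intervals below are exact 95% intervals for counting error only. A gene counts as higher or lower where its level differs at least 1.5-fold, the interval excludes 1 and at least 20 UMIs were counted, a rule about size alone.

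Pooled over all monocytes/macrophages, Lpl had its highest level at day 3, Lgals3 at day 7 and the other members at day 14. The share of all genes with their highest level at day 14 was not computed, so nothing is read from this. At day 14 over day 3, 5 of the 10 genes were higher (Spp1, Trem2, Gpnmb, Apoe and Fabp5) and 0 were lower, where 7.02% of 11635 genes tested were higher and 7.34% lower. The median log2 ratio of the members was 0.58, against 0.04 over all genes tested. At day 7 over day 3, 0 members were higher and 3 were lower (Spp1, Lpl and Cd36), with 4.33% of all genes higher and 5.57% lower. At day 14 over day 7, 6 members were higher (Spp1, Trem2, Apoe, Lpl, Cd36 and Cd9) and 0 lower, with 7.01% of all genes higher and 5.58% lower. The 3 comparisons share their libraries.

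Among the secreted products, Spp1 (osteopontin, a matrix protein that binds integrins and CD44; ENSMUSG00000029304, GRCm38 chr5:104435118-104441050) showed the widest range. Its level in monocytes/macrophages was 803 CPM at day 3, 467 CPM at day 7 and 2035 CPM at day 14. Day 14 was the highest and day 7 the lowest, with a day 14 over day 3 fold of 2.54 (2.49 to 2.59) and a day 7 over day 3 fold of 0.582 (0.563 to 0.600). The share of cells with a Spp1 UMI was 29.2%, 26.0% and 48.7%. T cells of the same libraries held a Spp1 UMI in 16%, 9.94% and 17.9% of cells. Whether this was free RNA in the droplets or RNA of the T cells was not tested. Median depths were 8539.5, 9574 and 6854 UMIs in T cells, against 10518, 10769 and 12019 UMIs in monocytes/macrophages. With every cell thinned to 5000 UMIs the shares were 22%, 20.8% and 37.9% in monocytes/macrophages, against 8.99%, 5.92% and 11.1% in T cells. The transcript sat in few cells: the 10% of cells with most Spp1 held 95%, 90.5% and 85.3% of its UMIs.

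Apoe (apolipoprotein E, the lipoprotein component that macrophages release to carry cholesterol away; chr7:19696109-19699188, minus strand) had 755, 723 and 1232 CPM at days 3, 7 and 14. Days 3 and 7 lay close together and day 14 above both, at a fold of 1.63 (1.60 to 1.67) over day 3. Lpl (lipoprotein lipase, which frees fatty acids from triglyceride; chr8:68880491-68907448) ran another way, with 550, 199 and 405 CPM. Its day 3 level was the highest of the 3, and day 7 over day 3 was 0.361 (0.345 to 0.378). Lgals3 (galectin-3, a sugar-binding protein abundant in macrophages; chr14:47367751-47386160) had 3442, 3699 and 3495 CPM and a UMI in 98.6%, 99.0% and 98.5% of cells. Its level hardly varied, with a day 14 over day 3 fold of 1.02.

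The receptors of lipid were Trem2 and Cd36. Trem2 (a lipid and lipoprotein receptor that signals through the adaptor encoded by Tyrobp; chr17:48346401-48354147) had 73.0, 52.4 and 123 CPM at days 3, 7 and 14, lowest at day 7 and 1.69-fold (1.57 to 1.81) higher at day 14 than at day 3. A Trem2 UMI was found in 29.4%, 32.3% and 47.1% of monocytes/macrophages, against 0.593%, 0.420% and 0.563% of T cells. Cd36 (a scavenger receptor that takes up oxidised lipoprotein and long-chain fatty acids; chr5:17781690-17888801, minus strand) had 102, 67.8 and 123 CPM. Day 14 over day 3 was 1.2 (1.13 to 1.28), short of the size rule, and day 7 over day 3 was 0.663 (0.608 to 0.722).

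Gpnmb and Cd9 encode membrane proteins. Gpnmb (a lysosomal and surface glycoprotein induced in lipid-laden macrophages, and also made by melanocytes; chr6:49036546-49070929) had 43.0, 59.4 and 80.1 CPM, in the order of the days, and day 14 over day 3 was 1.86 (1.70 to 2.04). Its RNA was the most concentrated of the 10 at each day: the top 10% of cells held 98.2%, 96.0% and 88.0% of it. Without cells that held any melanoma RNA the Gpnmb log2 ratio of day 14 over day 3 was 0.84, against 0.90 with them. Cd9 (a tetraspanin that organises membrane domains; chr6:125460266-125494791, minus strand) had 148, 127 and 202 CPM, and day 14 over day 3 was 1.36 (1.29 to 1.43). Cd9 was also carried by neutrophils, at 2549, 1583 and 1737 CPM, and 5 neutrophil markers summed to 284, 240 and 374 CPM in monocytes/macrophages; their part in the Cd9 level was not tested.

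The intracellular members were Fabp5 and Plin2. Fabp5 (a fatty acid carrier of the cytosol; chr3:10012548-10016607) had 905, 1148 and 1511 CPM, highest at day 14 with a fold over day 3 of 1.67 (1.64 to 1.70). Fabp5 has near-identical processed copies in the mouse genome and its counts are uncertain to that extent. Plin2 (perilipin 2, the coat of lipid droplets; chr4:86648386-86670060, minus strand) had 649, 647 and 791 CPM with a UMI in 86.1%, 87.3% and 90.3% of cells. Its day 14 over day 3 fold was 1.22 (1.19 to 1.25). Plin2 and Lgals3 were the most evenly spread over cells, with 40.3%, 38.5% and 38.9% of Plin2 UMIs in the top 10% of cells.

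**Figure D1:**
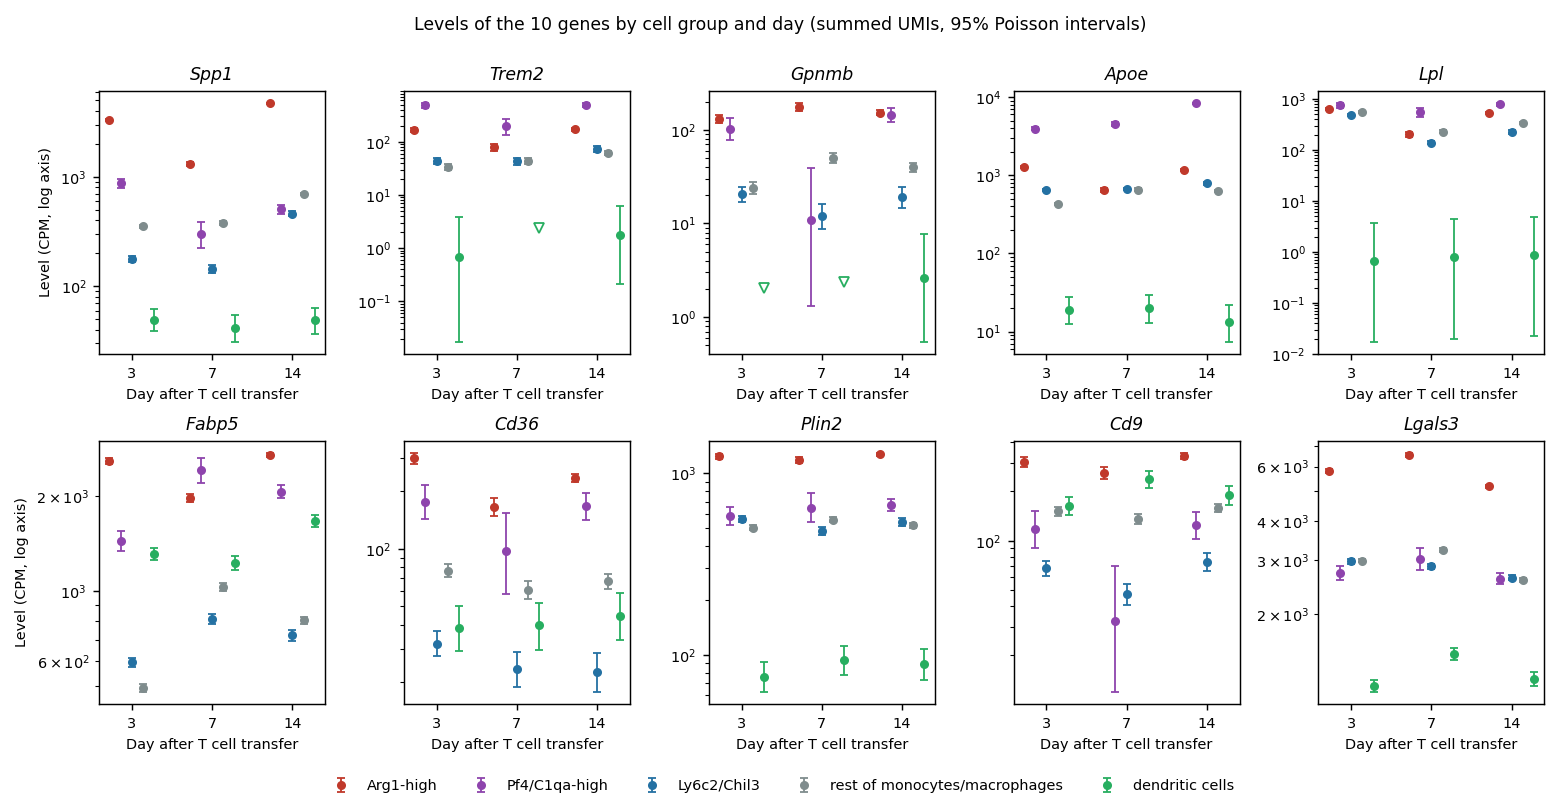
Level in CPM (log axis) of each of the 10 genes by day after transfer in Arg1-high cells, Pf4/C1qa-high cells, Ly6c2/Chil3 cells, the rest and dendritic cells, with 95% Poisson intervals as bars. Arg1-high cells lie on top for Spp1 (3294, 1305 and 4702 CPM) and Pf4/C1qa-high cells for Apoe (3913, 4539 and 8309 CPM) at each day.

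The levels of the members differed between the subsets of the monocytes/macrophages. In Arg1-high cells over the remaining monocytes/macrophages, 8 of the 10 members were higher in each of the 3 libraries and 0 were lower, where 3.42% of 9843 genes were higher in every library and 5.04% lower. The members' median log2 ratio was 1.49, 1.13 and 1.28 at days 3, 7 and 14, against −0.02, −0.18 and −0.13 over all genes. Arg1-high cells were deeper than the Ly6c2/Chil3 cells and the rest, with a median of 14376, 12070 and 14525 UMIs, against 10123, 10507.5 and 10842.5 in Ly6c2/Chil3 cells and 10394, 10416 and 11290 in the rest. With gates on UMIs scaled to 10000 per cell, 8 members were again higher in every library. Under TMM scaling the log2 ratios of this comparison shift by −0.04, 0.12 and 0.11.

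Spp1 stood at 3294, 1305 and 4702 CPM in Arg1-high cells. Its ratio to the remaining cells was the highest of the members in 2 of the libraries: 10.9-fold (10.5 to 11.3) at day 3 and 7.59-fold (7.40 to 7.79) at day 14. At day 7 it was 4.62-fold (4.38 to 4.87), with Gpnmb at 5.17-fold (4.44 to 6.03). Spp1 was uneven even among Arg1-high cells, with a median cell at 424, 169 and 894 CPM and the 90th percentile at 10222, 4304 and 13319 CPM. Gpnmb had 130, 176 and 152 CPM in Arg1-high cells, 5.10-fold (4.39 to 5.93) over the remaining cells at day 3 and 3.60-fold (3.23 to 4.02) at day 14.

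Cd36 had 298, 165 and 236 CPM in Arg1-high cells, which was 4.73-fold, 3.57-fold and 3.73-fold over the remaining cells. Fabp5 had 2585, 1969 and 2701 CPM, or 4.54-fold, 2.03-fold and 3.07-fold. Trem2 had 165, 79.0 and 173 CPM, or 3.02-fold, 1.70-fold and 1.78-fold. All 3 had their highest ratio at day 3. Cd9, Plin2 and Lgals3 kept nearly constant ratios over the libraries: 2.60, 2.66 and 2.48 for Cd9, 2.34, 2.25 and 2.38 for Plin2, and 1.96, 2.13 and 2.00 for Lgals3. The 2 members outside the count were Apoe, with 1273, 654 and 1166 CPM in Arg1-high cells and ratios of 1.96, 0.886 and 0.921, and Lpl, with 622, 201 and 530 CPM and ratios of 1.16, 1.02 and 1.56.

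**Figure D2:**
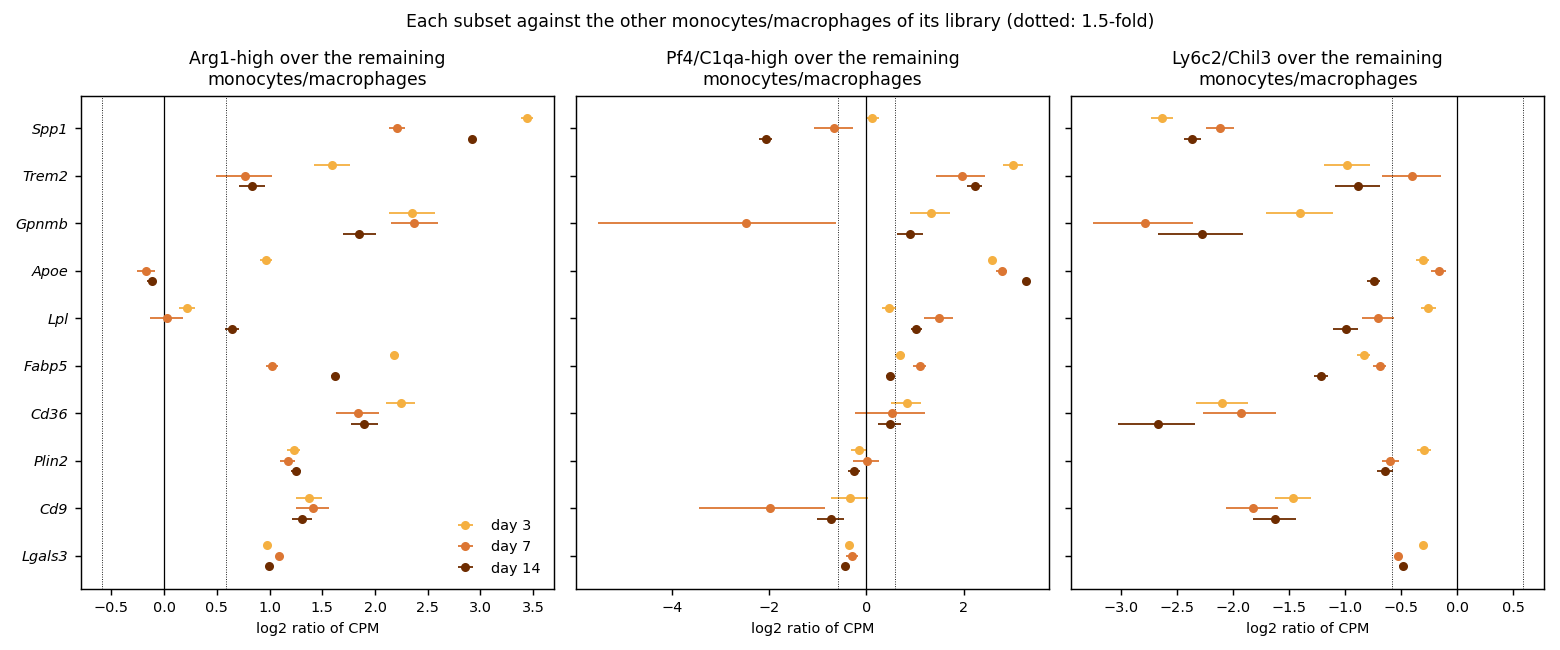
log2 ratio of CPM of each gene in Arg1-high, Pf4/C1qa-high and Ly6c2/Chil3 cells (1 panel each) over the other monocytes/macrophages of the same library, with days in colour, 95% counting intervals as bars and dotted lines at 1.5-fold. Spp1 lies at 3.44, 2.21 and 2.92 in the Arg1-high panel, Apoe at 2.59, 2.78 and 3.28 in the Pf4/C1qa-high panel, and no gene lies above its 1.5-fold line in the Ly6c2/Chil3 panel.

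Pf4/C1qa-high cells, a subset of 20, 12 and 44 cells, carried another combination of the members. In that subset over the remaining monocytes/macrophages 2 members, Apoe and Trem2, were higher in every library and 0 were lower, with 2.48% of all genes higher and 2.49% lower. Median log2 ratios were 0.58, 0.27 and 0.48 for the members, against 0.28, 0.27 and 0.18 for all genes, and TMM scaling shifts these ratios by −0.40, −0.20 and −0.28. Apoe stood at 3913, 4539 and 8309 CPM, which was 6.01-fold (5.73 to 6.31), 6.87-fold (6.39 to 7.38) and 9.70-fold (9.44 to 9.98) over the remaining cells. Trem2 stood at 480, 195 and 487 CPM, or 8.05-fold (6.98 to 9.26), 3.89-fold (2.70 to 5.45) and 4.70-fold (4.22 to 5.21), and was detected in 100%, 91.7% and 93.2% of these cells. So Apoe and Trem2 were both higher here than in Arg1-high cells at each day, while Spp1, at 873, 298 and 506 CPM, was below its Arg1-high level at each day. Cells with at least 5 Arg1 UMIs had already gone to the Arg1-high gate, and Pearson's r of Spp1 with Arg1 over cells was 0.50, 0.41 and 0.57. How far the gate order sets the lower Spp1 here was not tested.

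The other members were mixed in Pf4/C1qa-high cells. Lpl had 750, 541 and 785 CPM, with ratios of 1.38, 2.80 and 2.04 over the remaining cells. Fabp5 had 1439, 2413 and 2063 CPM, with ratios of 1.62, 2.14 and 1.39. Lgals3 was below the remaining cells in each library, at ratios of 0.785, 0.814 and 0.735, short of the size rule. Gpnmb had 54, 2 and 131 UMIs and Cd9 62, 6 and 114 UMIs, so their day 7 levels rest on single counts. A single cell held 24.8%, 67.3% and 34.7% of the Spp1 UMIs of this subset. These cells were also the deepest at days 3 and 14, with medians of 26736.5, 12401.5 and 19104.5 UMIs, and 6, 3 and 1 of them had a barcode that occurs in another library.

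Ly6c2/Chil3 cells lay below the remaining cells, which include the Arg1-high cells, for several members. Over the remaining monocytes/macrophages 0 members were higher and 5 (Spp1, Gpnmb, Fabp5, Cd36 and Cd9) were lower in every library, with 1.66% of all genes higher and 3.25% lower. Spp1 had 178, 145 and 461 CPM, or 0.161, 0.231 and 0.194 of the level in the remaining cells. Cd36 had 31.9, 23.5 and 22.6 CPM, or 0.233, 0.262 and 0.157. Apoe and Lgals3 were nearer to the remaining cells, with ratios of 0.807, 0.891 and 0.596 for Apoe and 0.806, 0.694 and 0.714 for Lgals3. Ly6c2/Chil3 cells held 28.4%, 30.9% and 11.4% of Apoe UMIs with 33.0%, 33.4% and 17.7% of all UMIs. The rest held 26.9%, 42.8% and 21.8% of Apoe UMIs with 47.2%, 47.0% and 42.6% of all UMIs. So for Apoe the rest lay below Ly6c2/Chil3 cells at days 3 and 14 and close to them at day 7. The members' median log2 ratio was −0.91, −0.70 and −1.10, against −0.08, 0.01 and 0.01 over all genes.

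The stretches around the starts of Spp1, Gpnmb, Trem2 and Apoe are shown because Spp1 and Gpnmb had the highest ratios of the members in the Arg1-high subset at days 3 and 7 (at day 14 Cd36 lay above Gpnmb), and Trem2 and Apoe were the members higher in the Pf4/C1qa-high subset in every library. Each runs 5′ to 3′ on the gene's own strand, with 250 bases before and 50 after the annotated start, from RefSeq on GRCm38.p6. Capitals mark a match to the AP-1 motif TGANTCA, which reads the same on both strands. RefSeq promoters matched 8 of the 10 members by symbol, all but Lpl and Fabp5.
Spp1, chr5:104434861-104435160, plus strand: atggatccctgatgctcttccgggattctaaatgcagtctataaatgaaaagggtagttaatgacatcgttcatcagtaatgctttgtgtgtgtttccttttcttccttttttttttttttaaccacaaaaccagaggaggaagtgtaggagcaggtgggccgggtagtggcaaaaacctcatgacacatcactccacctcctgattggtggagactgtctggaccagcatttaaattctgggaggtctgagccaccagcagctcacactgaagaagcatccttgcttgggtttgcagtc
Gpnmb, chr6:49036268-49036567, plus strand: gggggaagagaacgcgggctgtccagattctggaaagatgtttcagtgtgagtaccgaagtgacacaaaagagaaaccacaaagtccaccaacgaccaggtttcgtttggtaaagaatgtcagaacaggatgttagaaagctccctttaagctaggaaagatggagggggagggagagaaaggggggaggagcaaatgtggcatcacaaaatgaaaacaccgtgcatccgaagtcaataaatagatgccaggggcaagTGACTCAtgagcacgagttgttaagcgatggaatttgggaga
Trem2, chr17:48346151-48346450, plus strand: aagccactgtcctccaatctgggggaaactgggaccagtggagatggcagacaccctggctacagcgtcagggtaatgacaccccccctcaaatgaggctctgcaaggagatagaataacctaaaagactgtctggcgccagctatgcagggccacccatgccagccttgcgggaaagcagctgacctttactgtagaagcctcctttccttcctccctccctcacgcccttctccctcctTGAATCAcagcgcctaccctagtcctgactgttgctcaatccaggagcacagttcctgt
Apoe, chr7:19699139-19699438, minus strand: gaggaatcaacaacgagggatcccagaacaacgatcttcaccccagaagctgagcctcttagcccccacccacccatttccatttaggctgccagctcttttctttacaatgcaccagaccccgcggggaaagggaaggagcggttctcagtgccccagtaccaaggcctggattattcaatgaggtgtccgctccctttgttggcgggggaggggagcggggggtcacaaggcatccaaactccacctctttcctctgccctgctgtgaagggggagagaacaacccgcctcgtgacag
The AP-1 letters occurred in 2 of the 8 members, Trem2 and Gpnmb, and in 7.81% of 32851 promoters of the same length. In Trem2 the match lay just before the start and in Gpnmb just after it. The E-box CACGTG, also its own reverse complement and without overlap with TGANTCA, occurred in 1 of the 8, Plin2, and in 7.15% of the 32851. A match of letters is a description and not a site of binding.

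The day 14 over day 3 ratios were then read inside each subset. In Arg1-high cells 0 members were higher and 0 were lower at day 14 over day 3, with 2.08% of 9684 genes higher and 7.22% lower. Spp1 was closest to the rule at 1.43-fold (1.39 to 1.46), a log2 ratio of 0.51. It reached the rule under 4 alternatives, with log2 ratios of 0.61 under TMM scaling, 0.60 without the deepest 5% of cells, 0.61 as the mean over cells and 0.59 without the cell with the most UMIs of the gene. Cd36 was at 0.791 (0.726 to 0.863) and Trem2 at 1.05 (0.938 to 1.17).

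In Pf4/C1qa-high cells Apoe was higher at day 14 than at day 3, 2.12-fold (2.02 to 2.23), and Spp1 was lower, at 0.580 (0.508 to 0.661), with 4.12% of 6696 genes higher and 5.11% lower. Without barcodes that occur in another library the Apoe log2 ratio of 1.09 became 0.45 and was no longer past the rule, and without the deepest 5% of cells it became 0.38. The Spp1 log2 ratio of −0.79 became −1.33 and −2.14 under the same changes. The subset holds 44 cells at day 14 and 20 at day 3.

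In Ly6c2/Chil3 cells 2 members were higher at day 14, Spp1 (2.58-fold, 2.38 to 2.81) and Trem2 (1.64-fold, 1.36 to 1.97), and 1 was lower, Lpl (0.459, 0.423 to 0.499), with 8.85% of 9270 genes higher and 8.07% lower. A single cell held 30.1% of the Spp1 UMIs of this subset at day 3 and 42.6% at day 14. Without the top cell of each library the Spp1 log2 ratio of 1.37 became 1.09, and without cells that held any melanoma RNA it became 0.57, short of the rule. In the rest, 4 members were higher at day 14 (Spp1 1.99-fold, Trem2 1.83-fold, Gpnmb 1.66-fold and Fabp5 1.64-fold) and Lpl was lower (0.602, 0.573 to 0.632), with 7.24% of 10532 genes higher and 7.87% lower. In the rest the 5 neutrophil markers summed to 776 CPM at day 14 and 471 CPM at day 3, and the 3 NK cell markers to 6.85 CPM at day 14 and 24.5 CPM at day 3. Without cells that held a UMI of 7 T, B, NK cell or neutrophil genes, the log2 ratios in the rest were 0.86 for Spp1, 0.91 for Trem2, 0.79 for Fabp5 and 0.51 for Gpnmb, the last short of the rule. Gpnmb in the rest had a log2 ratio of 0.73, and of 0.14 where the gate needed 3 UMIs of Csf1r and Adgre1.

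Lpl was lower at day 14 than at day 3 in Ly6c2/Chil3 cells, in the rest and, short of the rule, in Arg1-high cells (0.852, 0.803 to 0.903), but not in Pf4/C1qa-high cells (1.05, 0.924 to 1.19). That exception rests on the gate and the cells kept: the Lpl log2 ratio in Pf4/C1qa-high cells was 0.07, and it was −0.47 with gates per 10000 UMIs, −0.35 without barcodes that occur in another library and 1.04 without the deepest 5% of cells. Spp1 was higher at day 14 than at day 3 in all but the Pf4/C1qa-high cells, by the rule in Ly6c2/Chil3 cells and the rest. Whether subsets differ in these ratios was not tested, since each day is 1 library.

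**Figure D3:**
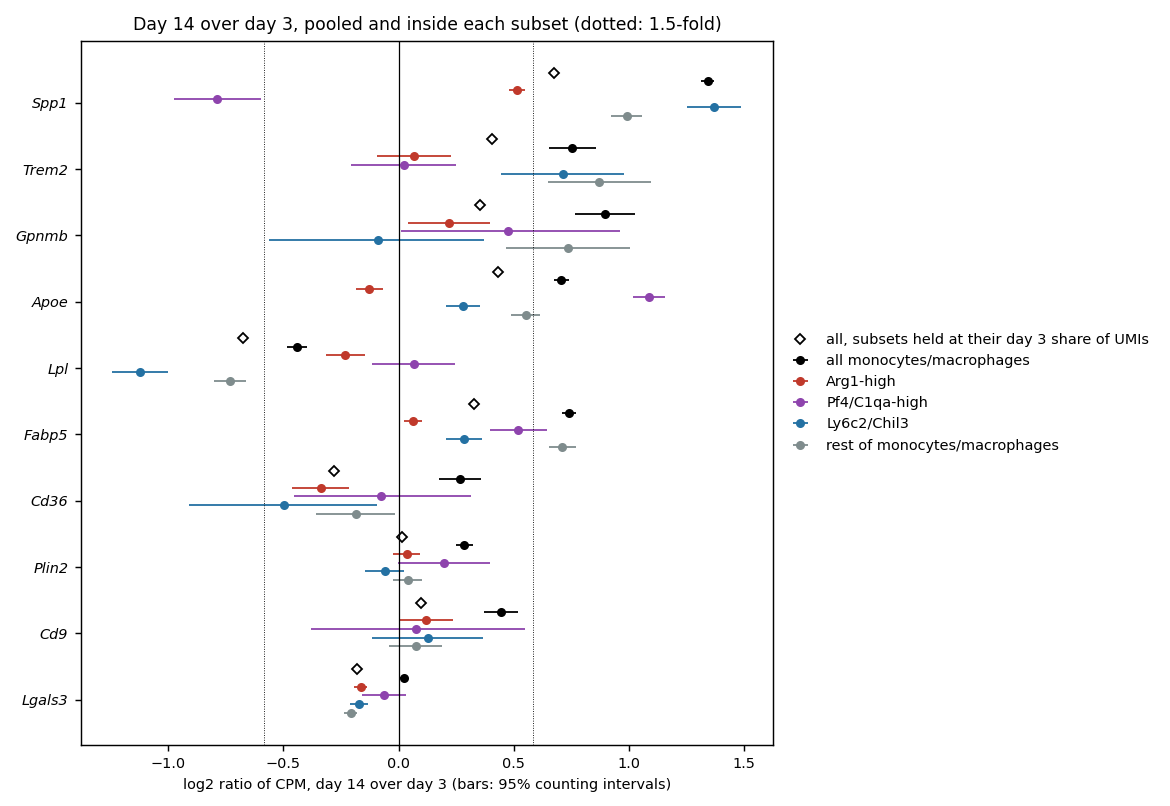
log2 ratio of CPM at day 14 over day 3 for each gene in all monocytes/macrophages and in each subset (colours), with 95% counting intervals as bars, dotted lines at 1.5-fold, and open diamonds for the pooled ratio with the subsets held at their day 3 share of UMIs. The pooled Spp1 point lies at 1.34, its diamond at 0.68 and its Pf4/C1qa-high point at −0.79.

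The make-up of the pool also differed between the days. The gates count UMIs, and monocytes/macrophages had median depths of 10518, 10769 and 12019 UMIs at days 3, 7 and 14. The part of depth in the shares below was not tested. Arg1-high cells were 11.8% (10.2 to 13.6), 15.8% and 29.7% (27.2 to 32.2) of monocytes/macrophages at days 3, 7 and 14 and held 16.7%, 18.0% and 34.7% of their UMIs. Ly6c2/Chil3 cells were 36.3%, 34.0% and 20.6% of the cells, and Pf4/C1qa-high cells 1.43%, 1.2% and 3.25%. Of all Spp1 UMIs of monocytes/macrophages, 68.5%, 50.3% and 80.1% lay in Arg1-high cells. The same share was 50.6%, 53.2% and 65.7% for Gpnmb and 48.7%, 43.9% and 66.4% for Cd36. Apoe was divided otherwise, with 28.2%, 16.3% and 32.8% of its UMIs in Arg1-high cells and 16.6%, 10.1% and 34.0% in the few Pf4/C1qa-high cells.

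Holding each subset at its day 3 share of UMIs, an alternative added after seeing the data, gave day 14 over day 3 log2 ratios of 0.68 for Spp1, 0.43 for Apoe, 0.41 for Trem2, 0.35 for Gpnmb and 0.33 for Fabp5. On that scale 1 member (Spp1) was past the rule as higher and 1 (Lpl, at −0.67) as lower, against 5 and 0 in the pool. Cd36 was at −0.28 held at the day 3 shares, against 0.27 in the pool.

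**Figure D4:**
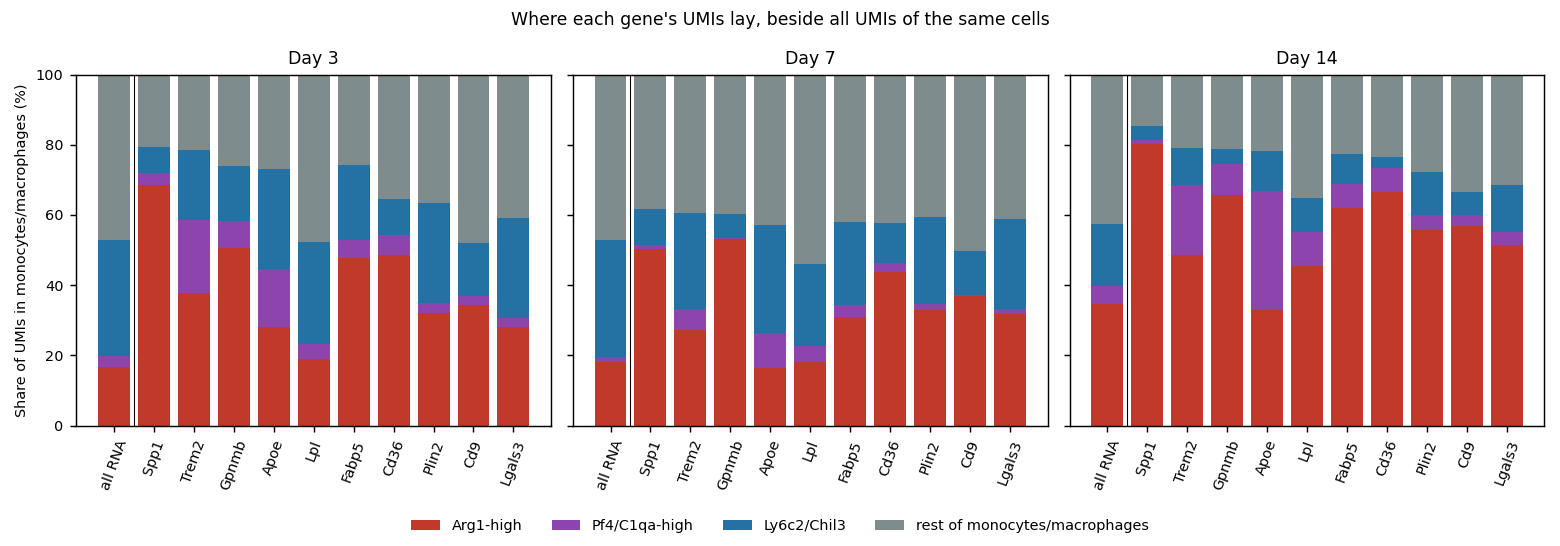
Share (percent) of the UMIs of each gene, and of all UMIs (first bar), that lay in Arg1-high cells, Pf4/C1qa-high cells, Ly6c2/Chil3 cells and the rest of the monocytes/macrophages, with 1 panel per day. At day 14 Arg1-high cells held 80.1% of Spp1 UMIs and 34.7% of all UMIs.

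Dendritic cells had less of several members. In monocytes/macrophages over dendritic cells 8 of the 10 members were higher in every library and 0 lower, with 10.9% of 10174 genes higher and 10.5% lower. Of these 8, Trem2, Gpnmb and Lpl had fewer than 20 UMIs in the dendritic cells of every library and met the minimum through monocytes/macrophages, so nothing is read from the count of 8. Of the other 7 members 5 were higher: Spp1, Apoe, Cd36, Plin2 and Lgals3. The size of these ratios depends on the gate, since cells with Flt3 and also Csf1r or Adgre1 count as monocytes/macrophages here. With the Flt3 gate first, which gave 142, 118 and 137 dendritic cells, 6 members were higher in every library. Of the 8 members above, Gpnmb and Cd36 were then not higher by the rule at day 3. TMM scaling shifts these log2 ratios by 0.25, 0.21 and 0.22. Apoe was 39.9-fold, 36.4-fold (24.7 to 56.3) and 94-fold (57.0 to 168) higher, with 18.9, 19.9 and 13.1 CPM in dendritic cells. Spp1 was 16.3-fold, 11.3-fold and 41.6-fold higher. Its level in dendritic cells, 49.4, 41.3 and 48.9 CPM, was below that in T cells, 75.4, 50.6 and 75.2 CPM. In the dendritic cells of the Flt3-first gate it was 304, 52.6 and 963 CPM. The source of this RNA was not tested. With the Flt3 gate first Apoe was 4.88-fold, 3.15-fold and 15.5-fold higher and Spp1 2.65-fold, 9.42-fold and 2.10-fold.

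Lpl had 1 UMI in the dendritic cells of each library, at ratios of 813 (146 to 32124), 250 (44.8 to 9884) and 464 (83.2 to 18319). Trem2 had 1, 0 and 2 UMIs there, and Gpnmb 0, 0 and 3. Against a floor of 3 UMIs in the summed dendritic cells of the library, Trem2 had a ratio of 22 at day 7. Gpnmb had ratios of 21.2 and 24.9 at days 3 and 7. These ratios rest on 0 to 3 dendritic UMIs and depend on the gate, so no size is read from them. With the Flt3 gate first Lpl was 2.58-fold, 5.92-fold and 6.21-fold higher, Trem2 4.51-fold, 3.62-fold and 7.92-fold higher, and Gpnmb had ratios of 0.929 (0.749 to 1.16), 10.6 and 4.97. With the reported gate order Plin2 was 8.56-fold, 6.91-fold and 8.87-fold higher, Lgals3 2.93-fold, 2.48-fold and 2.83-fold, and Cd36 2.65-fold, 1.71-fold and 2.76-fold. Plin2 and Lgals3 stayed higher by the rule in each library with the Flt3 gate first. Cd36 then had ratios of 1.42, 1.78 and 1.95, short of the rule at day 3. Fabp5 and Cd9 were not higher in monocytes/macrophages by the rule in any library with the reported gate order. Fabp5 had 1311, 1229 and 1667 CPM in dendritic cells, with ratios of 0.691, 0.934 and 0.906. Cd9 had 164, 237 and 190 CPM in dendritic cells, with ratios of 0.905, 0.536 and 1.06, so at day 7 it lay more than 1.5-fold below dendritic cells. With the Flt3 gate first its day 7 ratio was 0.659 (0.588 to 0.739), lower by the rule.

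Cells that carried most of the set at once were found mainly in the Arg1-high and Pf4/C1qa-high gates. At least 8 of the 10 genes had a UMI in 9.96% (8.44 to 11.7), 6.79% (5.31 to 8.53) and 23.1% (20.9 to 25.4) of monocytes/macrophages. The share was 44.8%, 25.3% and 53.4% of Arg1-high cells and 85.0%, 16.7% and 70.5% of Pf4/C1qa-high cells, against 2.96%, 1.18% and 3.60% of Ly6c2/Chil3 cells and 4.69%, 4.48% and 9.06% of the rest. None of the 97, 68 and 86 dendritic cells reached 8, which allows shares of up to 3.73%, 5.28% and 4.2%. With cells thinned to 5000 UMIs the mean number of the 10 genes detected was 6.15, 5.40 and 6.36 in Arg1-high cells, 6.98, 5.16 and 6.61 in Pf4/C1qa-high cells, 4.13, 4.0 and 4.79 in all monocytes/macrophages, and 2.07, 2.42 and 2.35 in dendritic cells. It was 3.81, 3.57 and 3.82 in Ly6c2/Chil3 cells and 3.77, 3.8 and 4.03 in the rest. The mean was lowest at day 7 in each of these groups except the rest and the dendritic cells, where it was lowest at day 3. All 10 genes were found together in 27, 6 and 47 cells, of which 17, 4 and 37 were Arg1-high.

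Detection of pairs in the same cell was set beside the product of their shares. This ratio cannot exceed 1 divided by the larger share of the pair, so a widely detected gene holds it down. Pairs and groups are therefore not ranked by it. After thinning to 5000 UMIs, Spp1 and Gpnmb were found in the same cell 2.51, 2.14 and 1.72 times as often as the product of their shares in monocytes/macrophages, and 1.19, 0.968 and 1.10 times within Arg1-high cells. Gpnmb and Cd36 gave 2.16, 2.53 and 1.97 in monocytes/macrophages and 1.30, 1.59 and 1.28 within Arg1-high cells. Spp1 and Apoe gave 1.10, 1.02 and 1.11 in monocytes/macrophages, close to the product of their shares. Trem2 and Apoe gave 1.2, 1.22 and 1.28. These ratios are descriptions over cells of 1 library each.

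**Figure D5:**
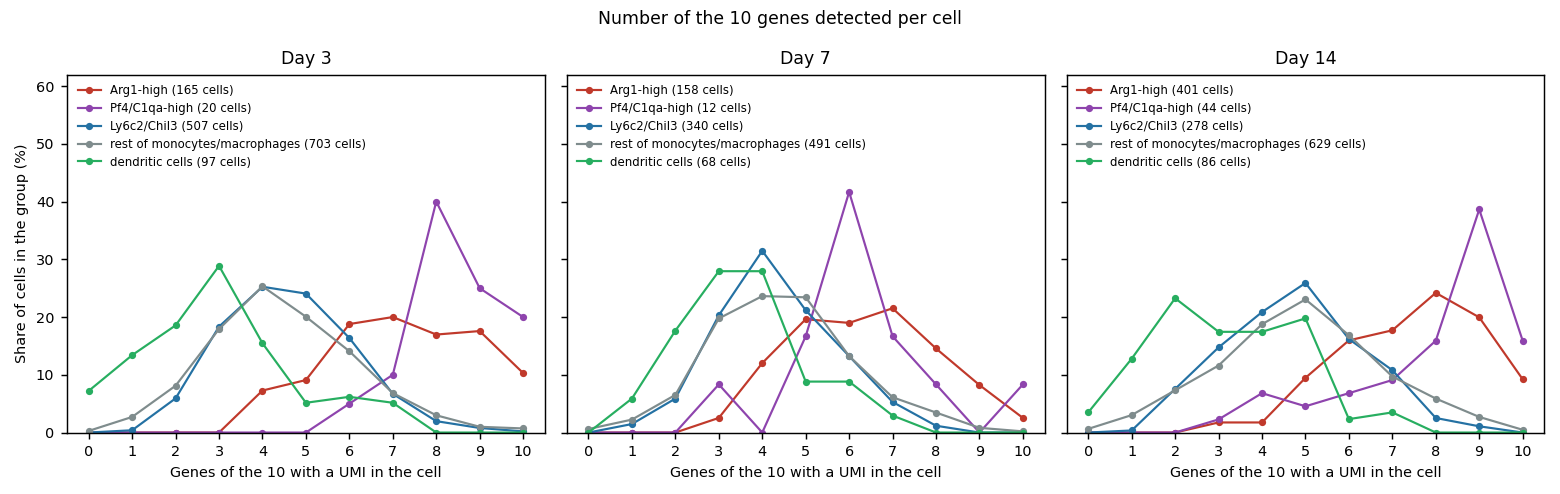
Share (percent) of cells by the number of the 10 genes with a UMI, for Arg1-high cells, Pf4/C1qa-high cells, Ly6c2/Chil3 cells, the rest and dendritic cells, with 1 panel per day and the number of cells in the key. Dendritic cells had a median of 3 genes at each day, against 7, 6 and 8 in Arg1-high cells.

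The level of Spp1 was highest in the cells with most Arg1. At day 3 it rose with each step of Arg1, but at days 7 and 14 it did not follow Arg1 in order at low counts. With 0 Arg1 UMIs the cells had 256, 279 and 370 CPM of Spp1, with 1 or 2 UMIs 648, 334 and 1587 CPM, with 5 or 6 UMIs 873, 218 and 1603 CPM, with 7 to 19 UMIs 1614, 713 and 3694 CPM, and with 20 or more 4440, 1663 and 5121 CPM. Just outside the threshold, at 3 or 4 Arg1 UMIs (15, 16 and 26 cells), Spp1 had 651, 101 and 2065 CPM, and just inside it, at 5 or 6 (16, 14 and 19 cells), the values above. At day 14 the cells just inside lay below those just outside, and at day 7 both lay below the cells with 0 Arg1 UMIs. Lpl showed no such order, with 473 CPM at 0 and 521 CPM at 20 or more Arg1 UMIs at day 3. At the Pf4/C1qa gate, cells with at least 10 C1qa UMIs and fewer than 5 of Pf4 (80, 51 and 84 cells) had 642, 1719 and 1377 CPM of Apoe. Cells with at least 5 Pf4 UMIs and fewer than 10 of C1qa (11, 9 and 21 cells) had 1694, 1170 and 1379 CPM of Apoe and 3020, 887 and 5086 CPM of Spp1.

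Genes that work beside the members were read from 9 lists. In Arg1-high cells over the remaining cells 3.42% of all genes were higher in every library and 5.04% lower. Of 13 genes that accompany the set in lipid-associated macrophages, 4 were higher and 0 lower in Arg1-high cells over the remaining cells in every library: Mmp12 (305, 685 and 908 CPM in Arg1-high cells, against 35.5, 46.5 and 71.7 CPM in the remaining cells; macrophage elastase), Atp6v0d2 (21.5, 23.3 and 16.8 CPM, against 2.41, 3.72 and 4.80 CPM; a proton pump subunit), Ctsk and Lgals1. Of 13 lysosomal genes 4 were higher and 0 lower: Ctsl (1269, 727 and 1294 CPM in Arg1-high cells, against 159, 198 and 251 CPM), Cd63, Ctsd and Ctsb, that is 3 cathepsin proteases and a lysosomal tetraspanin. Of 9 cholesterol efflux genes 1 was higher, Abca1 (113, 54.3 and 82.7 CPM in Arg1-high cells, against 9.63, 12.8 and 20.04 CPM), the transporter that loads cholesterol onto apolipoproteins.

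Other lipid lists held both higher and lower genes in Arg1-high cells, where 3.42% of all genes were higher and 5.04% lower. With so few genes a list, nothing is read from these counts. Of 8 lipid droplet genes 1 was higher, Hilpda (880, 1393 and 1119 CPM in Arg1-high cells, against 274, 353 and 293 CPM), which blocks droplet lipolysis, and 2 were lower, G0s2 and the hormone-sensitive lipase Lipe. Of 7 lipoprotein receptors and lipase partners, Msr1 and Lrp1 were higher, and Scarb1 was among those lower. Of 9 sterol synthesis genes 0 were higher and 1, Idi1, was lower, and the list's median log2 ratio was −0.83, −0.40 and −0.78, against −0.02, −0.18 and −0.13 over all genes. Of 10 fatty acid genes 1 was higher, Fabp4 (102, 25.2 and 42.1 CPM in Arg1-high cells, against 6.64, 11.6 and 13.8 CPM), a carrier of the same family as Fabp5.

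The lists of Trem2 and Spp1 partners are also short, and nothing is read from their counts. Over all genes 3.42% were higher and 5.04% lower in Arg1-high cells in every library. Of 9 genes of Trem2 signalling 0 were higher and 1, Plcg2, was lower in Arg1-high cells, and the adaptor Tyrobp, named for its role after its values were seen, had 1656, 1850 and 1718 CPM, against 2334, 2670 and 2449 CPM in the remaining cells. Of 5 Spp1 receptor genes measured in every library 0 were higher and 1, the integrin subunit Itga4, was lower, at 59.0, 36.9 and 33.2 CPM in Arg1-high cells, against 159, 130 and 114 CPM.

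Pf4/C1qa-high cells shared part of this, with 2.48% of all genes higher and 2.49% lower in every library. Of the lysosomal list 6 of 13 were higher and 0 lower in every library, among them Cd63 (653, 341 and 912 CPM in Pf4/C1qa-high cells, against 112, 78.4 and 139 CPM), Ctsd, Lipa (the lysosomal acid lipase; 196, 114 and 218 CPM, against 49.4, 55.1 and 62.7 CPM) and Ctsb. Of the 9 efflux genes 2 were higher, Pltp and Abca1. Mmp12, higher in Arg1-high cells, was lower here (32.4, 21.6 and 109 CPM, against 82.0, 164 and 375 CPM), as was Hilpda (156, 233 and 93.8 CPM, against 383, 546 and 605 CPM). The remaining cells of this comparison include the Arg1-high cells, which the gate order keeps out of this subset. Set beside the level given above for all cells outside the Arg1-high gate, Mmp12 was higher here at day 14, while Hilpda was lower at each day. How far the gate order sets these ratios was not tested. Igf1, a growth factor of tissue macrophages, was higher (181, 70.3 and 201 CPM, against 8.16, 3.37 and 9.91 CPM), and Ms4a7 of the Trem2 list was higher (466, 227 and 589 CPM, against 23.9, 25.3 and 36.4 CPM). The day 7 sum of Pf4/C1qa-high cells holds 184860 UMIs of 12 cells, so low levels there, such as that of Mmp12, rest on few counts.

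Between day 14 and day 3 in all monocytes/macrophages, where 7.02% of all genes were higher and 7.34% lower, each list held 0 to 3 higher genes and 0 to 2 lower ones. With so few genes a list, nothing is read from these counts. Of the 13 accompanying genes 3 were higher (Mmp12 with 361 CPM at day 14 and 80.4 CPM at day 3, Ctsk and Atp6v0d2) and 2 lower, with Cst7 the lower of them. Of the 13 lysosomal genes 2 were higher, Ctsd (969 CPM at day 14 and 545 CPM at day 3) and Ctsl (613 CPM at day 14 and 345 CPM at day 3). Of 9 sterol synthesis genes 0 were higher and 0 lower. Of the 7 Spp1 receptor genes Itgb5 and Itga9 were higher and Itga4 lower, and of the 9 Trem2 signalling genes Ms4a7 and Ms4a4a were higher. The remaining lists had Lrp1 higher and Olr1 among those lower (7 lipoprotein genes), Abca1 higher (9 efflux genes), Hilpda higher (8 droplet genes) and Acsl1 lower (11 fatty acid genes). The median log2 ratio of the 9 lists lay between −0.10 and 0.21, against 0.04 over all genes.

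Over the 15 sums of 5 cell groups at 3 days, the genes whose levels ran most like each member were ranked by Pearson's r of log2(CPM + 1) among 9505 genes. The sums share libraries and gates, so r is a description. Trem2 ran most like Cd93, Ctsa and Cd68 (r 0.99 each), Apoe like Rnf130 (0.99), Myo7a and Ctsa (0.98 each), and Plin2 like Cstb (0.99), Ccl6 and Ccl9 (0.98 each). Spp1 ran like Abcc1 (0.95), Hspa5 and Fth1 (0.94 each), Gpnmb like Fth1 (0.98), Osbpl8 and Parvb (0.95 each), and Lpl like Adgre1 (0.98), Csf1r and Atp6v0c (0.97 each), of which Adgre1 and Csf1r set the gate. Lgals3 ran like Lasp1, Pkm and Bsg (0.97 each) and Cd36 like Mtss1 (0.94), Bcar3 (0.93) and Lgals1 (0.91). The nearest genes of Fabp5, Zfp36l1 (0.90), Prmt2 (0.87) and Tspan3 (0.86), and of Cd9, Got1 (0.89), Fmnl2 (0.87) and Prr15 (0.86), were less like them. Among the members themselves, Trem2 and Apoe had 0.98, Plin2 and Lgals3 0.95 and Spp1 and Gpnmb 0.91, and Cd9 and Apoe had −0.34.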

How the data were processed

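The deposited files of the 3 libraries hold raw UMI counts of each gene in each barcode. Per the submitters' processing notes the authors used Cell Ranger 4.0.0 and mm10. No source used here names the gene annotation, or says whether doublets were taken out. Labels differ on whether CD45+ cells were taken with a cell sorter or with magnetic beads, and the cell type field holds a mouse strain, so groups of cells were gated from the counts. No doublet caller was used: only Cd3e was required to be 0, and leaving out cells with RNA of other lineages was an alternative. A cell that passed several subset gates (58, 38 and 125 cells) went to the first in the order given.

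UMIs were summed per gate and library, divided by their total and given as CPM. The 95% intervals are exact: Poisson for sums, Clopper-Pearson for shares and conditional binomial for ratios of sums. UMIs are not independent molecules across pooled mice, so these cover counting error only. With 1 library per day there is no test and no p-value. A list's median is given beside that of all genes tested. Shares at 5000 UMIs are exact expectations of random thinning, with shallower cells left out (86, 64 and 79 of the monocytes/macrophages). The code was tested on simulated data.

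The members, gates and lists were chosen with earlier results of these data known. Genes named beside the members are up to 4 of each list with the largest absolute log2 ratio and, per member, the 3 genes with the highest correlation. A result on 1 gene of the lists is not reported here. Alternatives changed the UMI minimum, cell filters, gates, shared barcodes, deepest cells, RNA of other cells, scaling (TMM factors from edgeR 4.0.16 on the counts), averaging and the size rule. Coordinates are from GENCODE M21 (GRCm38), matched by gene ID for all 10. Python 3.11.15, numpy 2.4.6, scipy 1.17.1, pandas 2.3.3 and matplotlib 3.10.9 were used.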

Additional observations from a re-analysis of the deposited data

Results flagged for a closer look

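Spp1 moved in opposite directions between day 14 and day 3 in different subsets. Its log2 ratio was −0.79 in Pf4/C1qa-high cells, 1.37 in Ly6c2/Chil3 cells and 0.99 in the rest of the monocytes/macrophages, each with an interval that excludes 0. Each day is 1 library, so the difference between the subsets was not tested. A single cell held 24.8% of the Spp1 UMIs of Pf4/C1qa-high cells at day 3 and 34.7% at day 14, and 42.6% of those of Ly6c2/Chil3 cells at day 14.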

How the results depend on the processing

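Of 408 recomputed counts of members, 376 stayed within 1.5 times the reported count, 32 moved and 0 turned in direction; of 2278 single values, 1639 stayed and 639 moved. Among recomputed log2 ratios, 0 of 861 turned in sign where the reported value was past the size rule, and 82 of 1177 did where it was short of it, for instance pooled Cd36 (0.27 reported) at −0.28 with subsets held at day 3 shares. Members higher in Arg1-high cells in every library numbered 6 to 8 over 19 alternatives, and members lower in Ly6c2/Chil3 cells 4 to 5. Members higher in monocytes/macrophages than in dendritic cells numbered 6 to 8 over 17. Nothing is read from that last count, since Trem2, Gpnmb and Lpl met the minimum through monocytes/macrophages.

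A 2-fold rule left 1 member higher at day 14 over day 3 (5 reported), 1 lower at day 7 over day 3 (3) and 3 higher at day 14 over day 7 (6). It left 0 lower in Pf4/C1qa-high cells (1), 1 higher in Ly6c2/Chil3 cells (2), and 0 higher (4) and 0 lower (1) in the rest. Subsets held at day 3 shares, added after seeing the data, gave 1 higher and 1 lower at day 14 over day 3 and 3 higher at day 14 over day 7. At day 7 over day 3, 1 member was higher (0 reported; Gpnmb) with the Flt3 gate first, without shared barcodes, without shared or Xist-positive barcodes, without the deepest 5% of cells and as the mean over cells, which also left 1 lower.

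Inside Arg1-high cells 1 member, Spp1, was higher at day 14 (0 reported) without the deepest 5%, with TMM scaling, as the mean over cells and without each gene's top cell. Inside Pf4/C1qa-high cells the members higher at day 14 (1 reported) were 3 without cells in several gates, 0 without shared or Xist-positive barcodes and 2 with TMM scaling, the mean over cells or no top cell. Without the deepest 5% the count there stayed at 1, but Apoe was short of the rule at a log2 ratio of 0.38 and Lpl was at 1.04. So a count that stayed can hold another gene. Inside Ly6c2/Chil3 cells 2 were lower (1 reported) without cells of other lineage RNA and with TMM scaling, and 1 was higher (2 reported) without melanoma RNA. Pf4/C1qa-high cells over the remaining cells had 4 higher (2 reported) with gates per 10000 UMIs and as the mean over cells, and 1 lower (0 reported) with TMM scaling. The causes were not tested.

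Depth limits Trem2, Gpnmb and Lpl in dendritic cells, at 0 to 3 UMIs a library, and Gpnmb and Cd9 in the 12 Pf4/C1qa-high cells of day 7. No paired analysis was possible because each day is 1 library, so days share fewer than 2 replicate numbers. Ratios of subsets were taken within each library and not tested, since the 3 libraries are different days and not replicates.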

Other observations

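Fabp5 was carried by dendritic cells in few cells: 10% of them held 73.6%, 69.9% and 73.5% of its UMIs at days 3, 7 and 14, and 50.5%, 57.4% and 60.5% of dendritic cells had a UMI, against 59.9%, 70.2% and 73.2% of monocytes/macrophages. T cells had 189, 108 and 174 CPM of Fabp5 and a UMI in 41.7%, 39.6% and 36.1% of cells.

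In single monocytes/macrophages of at least 5000 UMIs (1309, 937 and 1273 cells), Pearson's r of log2 values between Plin2 and Lgals3 was 0.47, 0.54 and 0.58 and between Spp1 and Arg1 0.50, 0.41 and 0.57, given as a description over cells of 1 library each.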
